A study of Mus musculus with 2 samples.

Results

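The 10 genes described here encode the proteins that build and clothe the lipoproteins of the liver, and were taken by symbol from the 19465 genes in the count matrices: Apoa1, Apoa2, Apoa4, Apoa5, Apob, Apoc1, Apoc2, Apoc3, Apoe and Mttp. All 10 had probes, and all 10 were among the 6933 genes with a mean level of 10 CPM or more in the 2 libraries, where CPM is the share of a library's counts scaled to a total of 1000000. They were measured by spatial transcriptomics (ST) on fixed and embedded sections of liver with 10x Visium for FFPE tissue, in which probe pairs bound to the tissue are captured on barcoded spots and counted by unique molecular identifiers (UMIs). A spot is a small region that usually holds several cells. One library, AEG-1ΔMAC, came from a mouse lacking AEG-1 in myeloid cells such as macrophages, made by crossing floxed AEG-1 mice to a LysM/Cre line, in which the Lyz2 promoter drives Cre. The other, AEG-1fl/fl, came from a mouse with the same floxed alleles and no such deletion. Each genotype was therefore represented by 1 section of 1 animal. The hepatocytes of both mice carried an undeleted AEG-1 gene. The labels give both mice as 27 weeks old and as fed a high fat/high sugar diet from 7 weeks of age, whereas the methods describe the ST animals as littermates on control diet, so the diet differs between these sources and is not stated here.

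Lipoproteins carry triglyceride and cholesterol through the blood. Mttp, the microsomal triglyceride transfer protein, loads lipid onto Apob, the single large structural protein of very low density lipoprotein (VLDL), in the endoplasmic reticulum of the hepatocyte. Apoa1 and Apoa2 are the main proteins of high density lipoprotein (HDL), and the small exchangeable apolipoproteins Apoc1, Apoc2, Apoc3, Apoe, Apoa4 and Apoa5 ride on the particle surface and steer its lipolysis and uptake. The liver lobule is divided into zones from the portal tract (zone 1, periportal) to the central vein (zone 3, pericentral), and many metabolic genes of hepatocytes are expressed along this axis.

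The filtered AEG-1ΔMAC library held 2140 spots and 45453286 UMIs, and the AEG-1fl/fl library 2540 spots and 50322850 UMIs. The 10 genes took 8.34% and 8.17% of all UMIs, respectively, so their summed CPM differed by a log2 ratio of 0.03. The share of albumin (Alb) was 8.80% against 14.2%, and the median log2 ratio of all genes, AEG-1ΔMAC over AEG-1fl/fl, was 0.15 rather than 0. The hepatocyte markers were present in both, with a summed level of 146894 CPM and 211458 CPM. Alb gave 87957 and 141947 CPM of these sums. Ttr, Trf, Fga and Ahsg were also lower in AEG-1ΔMAC, while Cps1 was higher (log2 ratio of 0.18). There were 1782 spot barcodes in common, which are positions printed on every capture area and not shared cells. With 1 library per genotype no test was possible, and each interval below is a 95% interval for counting error alone; it says nothing of the spread between mice or sections. Fewer cells of a type and less RNA per cell cannot be told apart in summed spots. Because probe pairs differ in how efficiently they bind, the level of a gene was set against the same gene in the other library or zone. Levels summed over a list, and the part of a gene in such a sum, also depend on the probes.

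Between the genotypes, the levels of the lipoprotein genes differed modestly. None of the 10 was at least 1.5-fold higher in AEG-1ΔMAC with its interval on that side, where 4.30% of all genes were, and none was at least 1.5-fold lower, where 1.79% of all genes were. The median log2 ratio over the 10 was 0.13, against 0.15 over all genes, whose 5th and 95th percentiles were -0.29 and 0.54. The spread among members was wider than this median shows, from -0.42 for Apoc2 to 0.58 for Apoa5.

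Apoa5, which raises the activity of lipoprotein lipase and lowers plasma triglyceride, had 1768 CPM in the AEG-1ΔMAC section against 1186 CPM in that of AEG-1fl/fl. Its log2 ratio was 0.58 (95% interval 0.56 to 0.59), a 1.49-fold higher level in AEG-1ΔMAC that lay just inside the 1.5-fold limit, and it ranked 308 of 6933 genes from the highest. With equal weight given to 5 bins of a zone index scaled over both libraries together, the same ratio was 0.65, past the limit. It was 0.45 with the libraries scaled by trimmed means or by size factors, and 0.43 without the 50 most abundant genes, short of the limit. Apoc2, the obligatory cofactor of lipoprotein lipase, differed in the opposite direction, with 111.1 CPM against 148.5 CPM, and its log2 ratio was -0.42 (-0.47 to -0.37). Apoc3, which slows lipolysis and the uptake of remnants, had 4943 CPM and 4267 CPM, a log2 ratio of 0.21 (0.20 to 0.22). The regulators of lipolysis thus differed in direction among themselves.

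The major HDL proteins also differed from each other. Apoa1, the activator of lecithin-cholesterol acyltransferase, had 26326 CPM in AEG-1ΔMAC against 31599 CPM, a log2 ratio of -0.26 (-0.27 to -0.26). Apoa2 had 26059 CPM and 22355 CPM, a log2 ratio of 0.22 (0.22 to 0.22). Set against Apoa1 within each library, where the choice of scaling cancels, Apoa2 was higher in AEG-1ΔMAC by 0.48 on the log2 scale and Apoa5 by 0.84.

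For VLDL assembly, Apob had 965.8 CPM in AEG-1ΔMAC against 790.9 CPM, a log2 ratio of 0.29 (0.27 to 0.31). Mttp had 175.9 CPM and 171.2 CPM, and its ratio of 0.04 (-0.01 to 0.08) could not be told from 0 by counting alone. Apob was higher relative to Mttp in AEG-1ΔMAC by 0.25. Apoc1, an inhibitor of lipoprotein uptake and of lipases, had 15968 CPM and 14713 CPM, and its log2 ratio of 0.12 (0.11 to 0.12) turned to between -0.024 and -0.0061 when the libraries were scaled by trimmed means, by size factors or without the 50 most abundant genes. Apoe, the ligand through which remnants bind their receptors, had 6516 CPM and 5907 CPM, with a log2 ratio of 0.14 (0.13 to 0.15) that became -0.00053 without those 50 genes. When scaled to total counts, Apoa4 was close to equal over the whole section, with 522.4 CPM and 554.7 CPM and a log2 ratio of -0.09 (-0.11 to -0.06). Measured from that of the median gene, the log2 differences were 0.43 for Apoa5, 0.14 for Apob, 0.08 for Apoa2, 0.07 for Apoc3, -0.00 for Apoe, -0.03 for Apoc1, -0.11 for Mttp, -0.23 for Apoa4, -0.41 for Apoa1 and -0.57 for Apoc2.

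**Figure D1:**
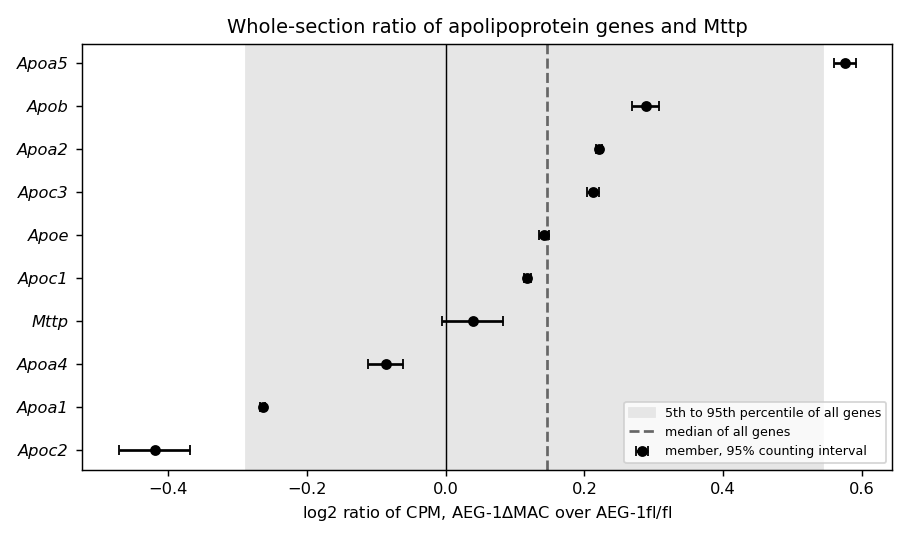
Log2 of the CPM in AEG-1ΔMAC divided by that in AEG-1fl/fl for each of the 10 genes (points) with the 95% counting interval (bars); the dashed line is the median of all genes at 10 CPM or more and the grey band their 5th to 95th percentile. Apoa5 at 0.58 lies above the band and Apoc2 at -0.42 below it, with the other genes inside.

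Zonation was then examined inside each library. Spots were ranked by an index made of study markers of zone 3 (Cyp2e1, Cyp1a2 and Oat) minus those of zone 1 (Pck1, Hal, Gls2, Cyp2f2, Hsd17b13 and Arg1), none of which is a lipoprotein gene, and were divided into 3 equal parts. The index separated the zones in both sections, since landmark genes that did not enter it had a median log2 ratio, zone 3 part over zone 1 part, of -1.08 (AEG-1ΔMAC) and -0.997 (AEG-1fl/fl) for the landmarks of zone 1, and of 2.28 and 2.31 for those of zone 3. Because spots were ranked within a library, the parts need not cover the same positions of the lobule.

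Apoa4, an apolipoprotein of chylomicrons and HDL that the mouse liver also makes, was the member whose zonation differed most between the libraries. In AEG-1ΔMAC its level was 775.4 CPM in the zone 1 part, 489.4 CPM in the middle part and 301.7 CPM in the zone 3 part, a log2 zone ratio of -1.36 (-1.41 to -1.31). In AEG-1fl/fl the levels were 561.9, 538.9 and 564.1 CPM, a zone ratio of 0.01 (-0.04 to 0.05). Apoa4 was thus higher toward zone 1 in the AEG-1ΔMAC section, and close to level across the 3 parts of the AEG-1fl/fl section. The difference of the zone ratios was -1.37 (-1.43 to -1.30), which ranked 6 from the lowest of 6924 genes. Apoa4 was singled out with this difference already known from an earlier result of these data, so its rank is a description only. The genotype ratio of Apoa4 accordingly changed sign along the lobule, from 0.46 (0.43 to 0.50) in the zone 1 part through -0.14 (-0.18 to -0.09) in the middle part to -0.90 (-0.95 to -0.85) in the zone 3 part, which the near-equal level of the whole section hid.

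Over 10 equal bins of the index, Apoa4 in AEG-1ΔMAC was lower at every step away from zone 1, from 876.7 CPM in the first bin to 207.0 CPM in the last, a 4.24-fold span. In AEG-1fl/fl it had no steady direction, with its lowest value of 487.6 CPM in bin 1, its highest of 628.9 CPM in bin 8, and a 1.29-fold span. On the index scaled over both libraries together, 28.0% of spots in AEG-1ΔMAC but 13.3% in AEG-1fl/fl fell in the last of 5 bins; a different mix of positions and a different level of the index markers cannot be told apart here. Within those 5 common bins the genotype ratio of Apoa4 was 0.57, 0.47, 0.13, -0.54 and -0.85 from the zone 1 end to the zone 3 end, so it crossed 0 also between spots of like index value.

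**Figure D2:**
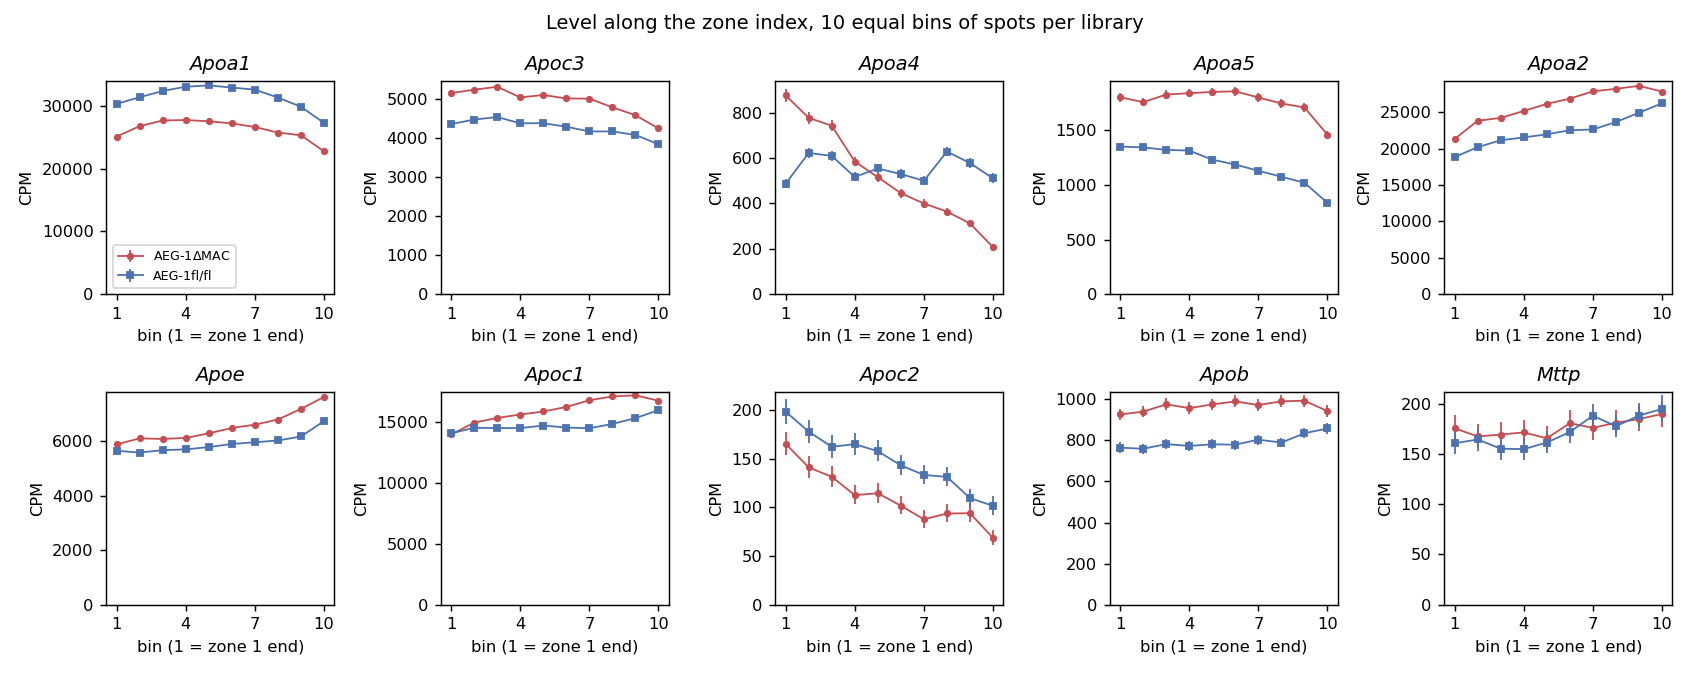
CPM of each gene (vertical axes, each starting at 0) in 10 equal bins of spots ranked by the zone index within a library (bin 1 is the zone 1 end), for AEG-1ΔMAC (circles) and AEG-1fl/fl (squares) with 95% counting intervals. The lines of Apoa4 cross, from 876.7 against 487.6 CPM in bin 1 to 207.0 against 510.5 CPM in bin 10, while those of Apoa1, Apoa2, Apoa5, Apob, Apoc2, Apoc3 and Apoe do not cross.

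Of the other 9 members, Apoc2 was zoned in both libraries. Its levels from zone 1 to zone 3 were 141.6, 104.3 and 87.2 CPM in AEG-1ΔMAC, against 178.0, 150.1 and 117.0 CPM in the other section, with zone ratios of -0.70 (-0.80 to -0.60) and -0.61 (-0.69 to -0.52). Apoa4 and Apoc2 were thus the 2 of 10 genes that were at least 1.5-fold higher in the zone 1 part of AEG-1ΔMAC, where 1.95% of all genes were, and Apoc2 was the 1 of 10 in AEG-1fl/fl, where 1.68% of all genes were. None of the 10 was at least 1.5-fold higher in the zone 3 part of AEG-1ΔMAC, where 2.93% of all genes were, or of AEG-1fl/fl, where 2.80% were. Apoa4 was the 1 of 10 whose zone ratio lay at least 1.5-fold more toward zone 1 in AEG-1ΔMAC than in AEG-1fl/fl, where 0.852% of all genes did, and none lay as far toward zone 3, where 0.433% did. Apoa4 was singled out with its zonation already known, so its presence in these counts was fixed beforehand. The counts that include it therefore say nothing of the members as a set.

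Apoa5 was the member with the next largest difference, in the opposite direction. Its levels were 1797, 1849 and 1655 CPM from zone 1 to zone 3 in AEG-1ΔMAC and 1337, 1217 and 1001 CPM in AEG-1fl/fl, so that it was zoned more strongly in AEG-1fl/fl (-0.42, interval -0.45 to -0.39) than in AEG-1ΔMAC (-0.12, interval -0.14 to -0.09). The difference of the zone ratios was 0.30 (0.26 to 0.34). The genotype ratio of Apoa5 was accordingly 0.43 in the zone 1 part, 0.60 in the middle part and 0.73 in the zone 3 part. With counts scaled to the total, its 2 later parts thus passed the 1.5-fold limit that the whole section missed. Other scalings were not applied to the parts.

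The remaining members had shallow gradients, alike in sign in the libraries. Higher toward zone 3 were Apoa2 (zone ratios of 0.27 in AEG-1ΔMAC against 0.28 in AEG-1fl/fl), Apoe (0.24 and 0.15), Apoc1 (0.19 and 0.09), Mttp (0.10 and 0.23) and Apob (0.04 and 0.10). Higher toward zone 1 were Apoc3 (-0.19 and -0.13) and Apoa1 (-0.10 and -0.07). These signs are read from 0, whereas the typical gene itself leaned slightly toward zone 3. The median zone ratio over all genes was 0.09 for the AEG-1ΔMAC section, and 0.07 for the other. Apob of AEG-1ΔMAC lay below that median. Mttp of AEG-1ΔMAC, and both Apob and Apoc1 of AEG-1fl/fl, were close to it and so hardly more pericentral than a typical gene. Apart from Apoa4 and Apoa5, the differences of the zone ratios ran from -0.13 for Mttp to 0.11 for Apoc1, and that of Apoc2, -0.09, had an interval that included 0 (-0.22 to 0.04). Without regard to sign, the difference had a median of 0.09 over the other 9 members and of 0.11 over all genes.

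**Figure D3:**
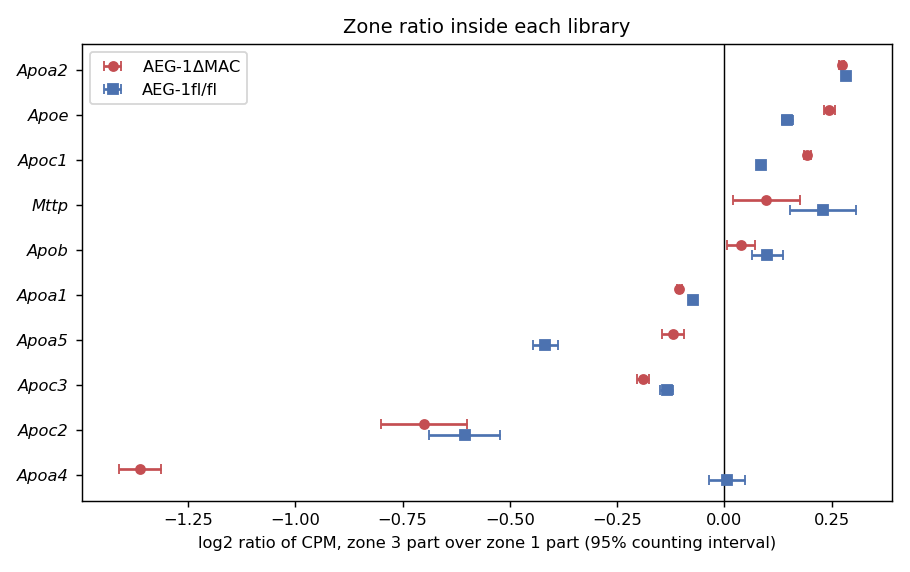
Log2 ratio of CPM, zone 3 part over zone 1 part, of each gene in AEG-1ΔMAC (circles) and AEG-1fl/fl (squares) with 95% counting intervals; values below 0 are higher in zone 1. The 2 points of Apoa4 lie apart at -1.36 and 0.01, those of Apoa5 at -0.12 and -0.42, and those of the other genes close together.

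Apoa4 is the third gene of a cluster on chromosome 9 in which Apoa1 (GRCm38, 46228580 to 46230466, plus strand), Apoc3 (46232933 to 46235636, minus strand), Apoa4 (46240696 to 46243459, plus strand) and Apoa5 (46268633 to 46271919, plus strand) lie within 43.3 kb. Apoc2 (19671579 to 19677941), Apoc1 (19689481 to 19692660) and Apoe (19696109 to 19699188) form another on the minus strand of chromosome 7, within 27.6 kb. Apoa2 lies on chromosome 1 (171225054 to 171226379, plus strand), Apob on chromosome 12 (7977648 to 8016835, plus strand) and Mttp on chromosome 3 (138089854 to 138144968, minus strand). Neighbours differed in zonation: in AEG-1ΔMAC the zone ratios along the chromosome 9 cluster were -0.10, -0.19, -1.36 and -0.12 in gene order, and along the chromosome 7 cluster -0.70, 0.19 and 0.24. In AEG-1fl/fl they were -0.07, -0.13, 0.01 and -0.42 along the first and -0.61, 0.09 and 0.15 along the second. The gene furthest from its chromosome 9 neighbours was thus Apoa4 in AEG-1ΔMAC but Apoa5 in AEG-1fl/fl.

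The bases before the starts of Apoa1, Apoa4 and Apoa5 are shown because these neighbours on the same strand had 3 different zone patterns. RefSeq's promoter table for GRCm38.p6 had an entry for 8 of the 10 genes and none for Apoc1 and Apoc3. Each sequence is the 250 bases before the start that RefSeq gives, plus strand; for Apoa1 and Apoa4 that start lies inside the gene bounds given above, which come from GENCODE. Apoa5 had 2 entries with nearby starts and the first is shown. Capitals mark a match to one of 5 motifs searched on both strands, AGGTCA (nuclear receptor half-site), CAAAGTNCA (HNF4 site), TATAAA (core promoter box), GTTAAT (HNF1 half-site) and TGACG (half-site of the cAMP response element).
Apoa1 chr9:46228380-46228629: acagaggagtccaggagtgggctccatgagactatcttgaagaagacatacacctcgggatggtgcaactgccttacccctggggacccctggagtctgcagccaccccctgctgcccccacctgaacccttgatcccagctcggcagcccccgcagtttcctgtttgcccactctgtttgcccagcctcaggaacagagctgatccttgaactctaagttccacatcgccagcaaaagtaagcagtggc
Apoa4 chr9:46240594-46240843: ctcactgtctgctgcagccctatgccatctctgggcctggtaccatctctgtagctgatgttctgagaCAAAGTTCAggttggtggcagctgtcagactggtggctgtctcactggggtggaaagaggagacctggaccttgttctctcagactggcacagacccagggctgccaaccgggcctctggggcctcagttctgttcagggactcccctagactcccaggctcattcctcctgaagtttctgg
Apoa5 chr9:46268358-46268607: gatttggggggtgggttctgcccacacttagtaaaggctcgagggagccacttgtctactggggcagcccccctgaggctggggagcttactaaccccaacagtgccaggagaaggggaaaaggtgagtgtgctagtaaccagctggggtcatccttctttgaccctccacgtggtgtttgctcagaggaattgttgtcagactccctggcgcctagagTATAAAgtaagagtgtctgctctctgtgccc
The Apoa4 window held 1 match to the HNF4 letters, beginning 182 bases before the start, and 1.19% of the 32851 windows of the table held one. The Apoa5 window held the letters TATAAA beginning 31 bases before the start, as did 12.4% of windows at any position, and the Apoa1 window held none of the 5. Of the remaining motifs, AGGTCA was held by 14.0% of windows, GTTAAT by 6.43% and TGACG by 17.8%. A match says only that the letters are there.

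In single spots, Apoa4 was the most variable of the 10 genes beyond counting noise. After every spot was thinned to 10000 UMIs, which left out 26 AEG-1ΔMAC and 106 AEG-1fl/fl spots of lower depth, the coefficient of variation of Apoa4 was 0.68 in AEG-1ΔMAC against 0.94 in AEG-1fl/fl, or 0.52 and 0.84 without the part that Poisson counting gives. The next highest on this last measure was Apoc2, with 0.29 and 0.24. Apoa4 thus varied more from spot to spot in AEG-1fl/fl, the section where its zone ratio from summed counts was 0.01. There, in the zone 3 part, single spots ran from 140.8 CPM (10th percentile) through a median of 387.9 CPM to 1248 CPM (90th percentile), whereas the same part of AEG-1ΔMAC ran from 104.6 through 293.4 to 518.3 CPM. In the zone 1 part the order was turned, with 197.0, 458.0 and 1078 CPM in AEG-1fl/fl and 380.3, 736.9 and 1262 CPM in AEG-1ΔMAC. Taken as the median over spots, the zone ratio in AEG-1fl/fl was -0.24 in place of 0.01, and leaving out the 10% of spots highest in Apoa4 of each part made it -0.14. Apoa4 was detected in 99.3% and 99.1% of spots, so these are differences of level among spots that nearly all held the transcript.

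**Figure D4:**
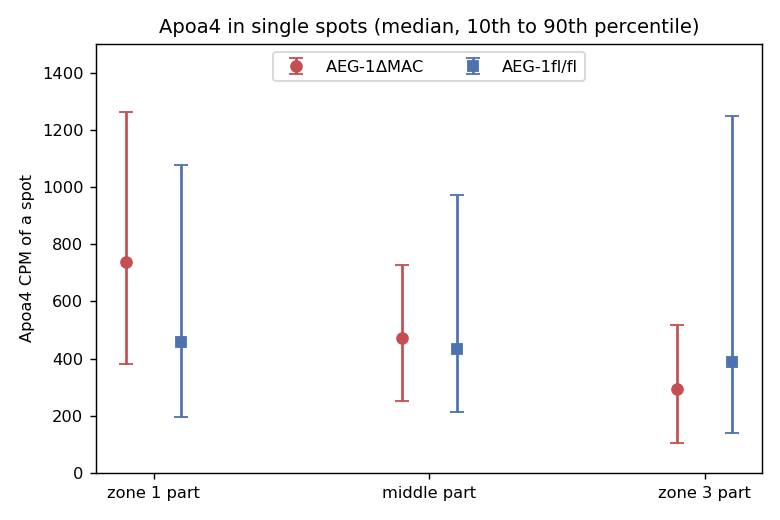
Apoa4 CPM of single spots in the 3 parts of the zone index, as the median (points) with the 10th to 90th percentile over spots (bars), for AEG-1ΔMAC (circles) and AEG-1fl/fl (squares). The AEG-1ΔMAC medians step down from 736.9 to 293.4 CPM, while in AEG-1fl/fl the bars are wide in all parts and reach 1248 CPM in zone 3.

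Across spots, the gene that followed Apoa4 differed between sections. In AEG-1ΔMAC the Spearman correlation of Apoa4 with the zone index was -0.67 over 2140 spots, and in AEG-1fl/fl it was -0.07 over 2540 spots; spots of a section share a library and are not replicates. Apoc3, whose gene lies next to Apoa4, had a rank correlation with it of 0.41 in AEG-1ΔMAC against 0.50 in AEG-1fl/fl, and in the latter it stood first of the 2180 genes at 50 CPM or more. In the zone 3 part of AEG-1fl/fl, where single-spot levels of Apoa4 were widest, this correlation was 0.62. Apoa5, on the other side of Apoa4, had 0.09 in AEG-1fl/fl and 0.21 in AEG-1ΔMAC, and Apoa1, beyond Apoc3, had -0.10 and 0.20. In AEG-1ΔMAC the genes closest to Apoa4 were Mup20 (0.70), Alb (0.68) and the index markers Cyp2f2 (0.65) and Hsd17b13 (0.62), and Apoc3 ranked 24. Mup20 belongs to a family of related genes, so its value is less certain. Spots were compared here as CPM, so the correlations also carry whatever the genes share with the depth and the large Alb fraction of a spot. Among the other pairs of members, Apoa2 and Apoc1 were closest, with 0.66 and 0.45.

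The profile of Apoa4 over the 10 bins of each library, 20 points in all, was most like those of S100a1 (Pearson r of 0.91), Etnk1 (0.90), Uox (0.88), Slco2a1 (0.85) and Acaca (0.84) of the 2171 genes compared at 50 CPM or more. The likeness is of shape and not of size, since the zone ratio of S100a1, a calcium-binding protein, was -0.25 in AEG-1ΔMAC against -0.05 in AEG-1fl/fl, and that of Uox, urate oxidase, -0.53 and -0.07. Acaca, the acetyl-CoA carboxylase that makes malonyl-CoA for fatty acid synthesis, had -0.38 and -0.00. Of the members, Apoc2 was the most like Apoa4 (0.72) and Apoe the least (-0.77).

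Other cell types were examined as a measured background. Apoa4 is made mostly by enterocytes in the mouse, and of 10 enterocyte markers 4 had 0 UMIs in AEG-1ΔMAC and 5 had 0 UMIs in AEG-1fl/fl, among them Alpi, Sis, Cdx1 and Krt20 in both; the summed level of the list was 163.0 and 175.9 CPM, of which Fabp2, a fatty acid binding protein, gave 145.2 and 151.3 CPM. Lgals4 had 16.3 and 23.5 CPM, and each of the other 8 markers had 1.32 CPM or less. Spots rich in cholangiocyte markers (Spp1, Epcam, Krt7 and Krt19), taken as the highest 10% within each zone part, had more Apoa4 than the other spots, by log2 ratios of 0.37 (0.31 to 0.42) in AEG-1ΔMAC against 0.55 (0.50 to 0.59) in AEG-1fl/fl. The other members differed less there, between -0.10 and 0.18 in AEG-1ΔMAC, and between -0.13 and 0.18 in AEG-1fl/fl. These 4 markers summed to 73.5 CPM in AEG-1ΔMAC against 62.3 CPM in AEG-1fl/fl; with Sox9, the other gene of the list, which had 13.8 and 25.9 CPM, the sums were 87.3 and 88.2 CPM. In spots rich in Kupffer cell markers (Clec4f, Cd5l and Vsig4), the resident liver macrophages and targets of the AEG-1 deletion in AEG-1ΔMAC, Apoa4 differed by -0.06 (-0.12 to 0.01) in AEG-1ΔMAC and by 0.25 (0.19 to 0.30) in AEG-1fl/fl, and in spots rich in stellate cell markers by -0.03 (-0.10 to 0.03) and 0.17 (0.11 to 0.23). Apoe, which macrophages also make, differed by -0.00 and -0.02 in the Kupffer-rich spots. Over whole sections, the log2 ratio of AEG-1ΔMAC over AEG-1fl/fl was 0.05 for Clec4f, 0.21 for Cd5l and -0.07 for Vsig4. Of the other Kupffer cell genes listed, Timd4 was at 0.07 and Marco at -1.38 (13.9 against 36.1 CPM). In spots high in Plin2, which coats lipid droplets, Apoa4 differed by 0.07 and 0.03. The part of other cells in the Apoa4 pattern was not tested.

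The rest of the lipoprotein pathway was described by 7 lists of genes, whose small counts are to be read against the 4.30% of all genes that were at least 1.5-fold higher and the 1.79% that were lower. Of the 8 other apolipoproteins at 10 CPM or more, none was 1.5-fold higher or lower in AEG-1ΔMAC, and their log2 ratios ran from -0.20 for Apom, which carries sphingosine-1-phosphate on HDL, to 0.35 for Apol9a. Of 11 genes of particle assembly and secretion, 1 was lower, Smlr1 at -0.72 (-0.85 to -0.59; 16.2 against 26.7 CPM), and none was higher; the highest was Mia3, a cargo receptor for large secreted particles, at 0.36. None of the 3 genes of Apob mRNA editing passed the limit. Among them were Rbm47, a cofactor of the editing enzyme, at 0.55 and the enzyme Apobec1 at 0.09.

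Of 9 genes that act on lipoproteins in plasma, 2 were lower in AEG-1ΔMAC and none was higher, with a median log2 ratio over the list of -0.0022. Lpl, lipoprotein lipase, had 50.8 CPM in AEG-1ΔMAC against 191.4 CPM, a log2 ratio of -1.91 (-1.98 to -1.85). Pltp, the phospholipid transfer protein, had 24.4 and 43.6 CPM, a log2 ratio of -0.83 (-0.94 to -0.73), and Lipc, hepatic lipase, was the highest of the list at 0.53. Lpl was thus lower, as was Apoc2, the gene of its cofactor, while Apoa5, which raises its activity, was higher. A link among these differences was not tested.

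Of 7 genes of receptors and clearance, 1 was higher in AEG-1ΔMAC, Mylip, a ubiquitin ligase that degrades the LDL receptor, with 13.8 against 7.19 CPM (0.94, interval 0.75 to 1.13), and none was lower, with Sdc1, a heparan sulfate proteoglycan that binds remnants, lowest at -0.37. None of 3 genes of sterol export passed the limit, from Abca1 at 0.17 to Abcg8 at 0.31. Of 14 transcriptional regulators 2 were higher and none was lower. Onecut1 (HNF6) had 125.2 CPM in AEG-1ΔMAC against 10.3 CPM, a log2 ratio of 3.60 (3.47 to 3.73), and Foxa2, also a hepatocyte transcription factor, was at 1.19 (1.06 to 1.31). The lowest was Nr0b2, a repressor induced by bile acids, at -0.58. Hnf4a, a nuclear receptor that acts at many apolipoprotein genes, was at 0.46 and Creb3l3, a membrane-bound factor known to act on Apoa4, at 0.05; their zone ratios were -0.10 and -0.10 in AEG-1ΔMAC against -0.09 and -0.07 in AEG-1fl/fl. The medians of the lists lay between -0.00 for plasma remodelling and 0.28 for sterol export.

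**Figure D5:**
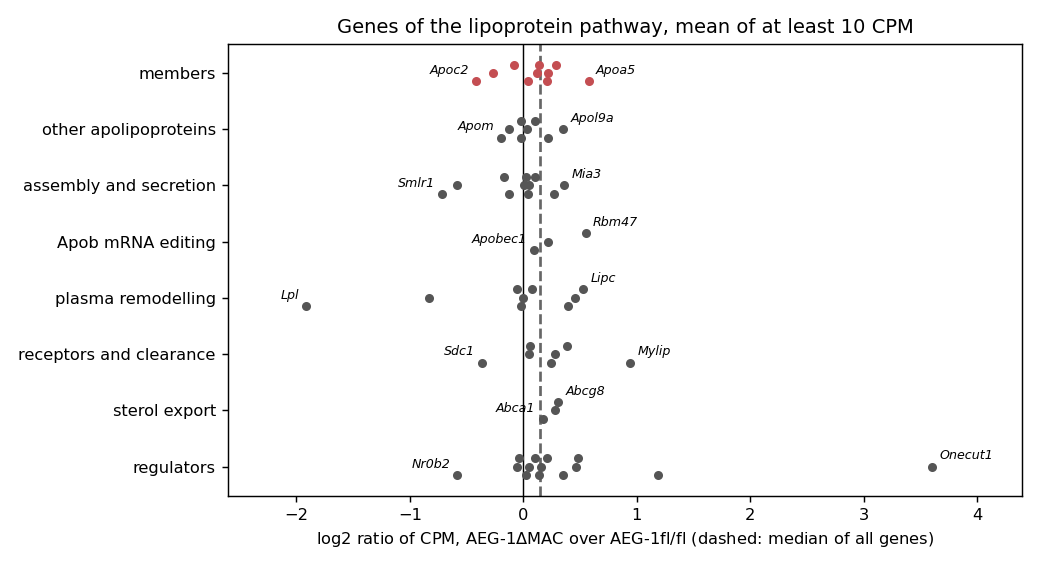
Log2 of the CPM in AEG-1ΔMAC divided by that in AEG-1fl/fl (horizontal axis) of each gene at 10 CPM or more in the 10 members (top row) and the 7 pathway lists; a point is a gene, the lowest and highest of each list are named and the dashed line is the median of all genes. The members lie between -0.42 and 0.58, while Lpl at -1.91 and Onecut1 at 3.60 stand far out in their lists.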

How the data were processed

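The authors ran Visium for FFPE on liver sections placed on the same slide and made the matrices with Space Ranger 2.0.1 against mm10 and its probe set; the submitters' notes also name Seurat 4.3.0. The deposited files hold raw UMI counts per gene and spot, with no normalisation, as tested on the values (whole numbers). Groups came from the genotype labels.

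Spots with at most 50000 UMIs and 100 to 7000 genes were kept, as in the study, which left out 9 of the 2149 spots of AEG-1ΔMAC, and 3 of 2543 in AEG-1fl/fl; the study gives 2149 and 2543 as the numbers left after this filter, so the spots kept here are fewer. The median spot then held 20929.5 and 18285 UMIs. UMIs were summed per library or zone part and divided by the total to give CPM. A log2 ratio was given an exact conditional binomial (Clopper-Pearson) 95% interval, and the difference of 2 zone ratios an interval from its 4 UMI sums; the bars of CPM are exact Poisson intervals. A gene counted as higher or lower when the ratio was at least 1.5 with the interval on the same side and the mean at least 10 CPM. Zone index markers were left out of counts by zone, which left 6924 genes. The index was the mean scaled log-normalised value of the zone 3 markers minus that of the zone 1 markers.

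The members, lists and markers were chosen with earlier results of these data known, among them the zonation difference of Apoa4. All members, the highest and lowest gene of each list and the 5 genes whose profile was most like that of Apoa4 were named by rule; Pltp, Foxa2, Hnf4a, Creb3l3, Tm6sf2, Apoc4, Alb and the genes closest to Apoa4 across spots were also named after their values were seen. Coordinates are from GENCODE M21 (GRCm38, the assembly of mm10), matched by Ensembl identifier, and promoters from RefSeq. Glul had no probe row. Computations were done in Python 3.11.15 with numpy 2.4.6, scipy 1.17.1 and pandas 2.3.3, and scaling factors in R 4.3.3 with edgeR 4.0.16, which ran no test. The intervals were tested on counts simulated with Poisson error alone, a check that does not cover the spread between spots, sections or mice. Alternatives changed the scaling, the spots, the index, the zone parts, the summary over spots, the fold and the minimum level.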

Additional observations from a re-analysis of the deposited data

How the results depend on the processing

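No paired analysis was possible because each genotype had 1 library and no replicate, so no library was left out in turn either. The Apoa4 zonation difference of -1.37 kept its sign under all 8 alternatives. It was -1.16 with an index from landmark genes, -1.29 with joint cut points, -2.15 between the outer 10% of spots and -1.25 with spots matched on UMIs. Among alternatives chosen after seeing the data, it was -1.09 as the median over spots and -1.24 without the 10% of spots highest in Apoa4. The Apoa4 zone ratio in AEG-1ΔMAC was -1.13, -1.30 and -2.08 with the landmark index, joint cut points and outer spots. In AEG-1fl/fl the ratio of 0.01 became 0.066 between outer spots, -0.11 with matched spots, -0.24 as the median over spots and -0.14 without the spots highest in Apoa4, so its sign was not settled.

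The median log2 ratio of the 10 genes, 0.13, was -0.012 with the 50 top genes out of the total, 0.0057 with TMM factors, 4.01e-05 with size factors and 0.087 with 5 joint zone bins; the median of all genes was as low as 0.0039. With those bins 1 of the 10, Apoa5, was at least 1.5-fold higher. Its ratio was 0.65 there, against 0.45 with TMM factors, 0.45 with size factors and 0.43 without the 50 genes. The genotype ratio of Apoc1 turned to -0.024 without the 50 genes, -0.0061 with TMM factors and -0.012 with size factors, that of Apoe to -0.00053 without the 50 genes, and the Mttp ratio reached -0.10 under scaling. The whole-section Apoa4 ratio was -0.21 with TMM factors, -0.22 with size factors and -0.23 without the 50 genes. It was -0.044 with 5 joint zone bins and -0.0060 with spots matched on UMIs. The small Apoa1 zonation difference turned to 0.074 with joint cut points and 0.0090 between outer spots. The counts of all genes past 1.5-fold, 298 higher and 124 lower, were 88 and 36 past 2-fold and 590 and 436 with a minimum of 1 CPM. Counting error was small for most members. The intervals of the Mttp genotype ratio (-0.01 to 0.08) and of the Apoc2 zonation difference (-0.22 to 0.04) spanned both signs. The animals, sections and capture areas cannot be told apart from the genotypes.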

Other observations

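Tm6sf2, an endoplasmic reticulum protein of VLDL lipidation, was at a log2 ratio of AEG-1ΔMAC over AEG-1fl/fl of -0.58 (-0.72 to -0.44), just inside the 1.5-fold limit, and its zone ratio was -0.63 in AEG-1ΔMAC against -0.14 in AEG-1fl/fl. Alb was more strongly zoned toward zone 1 in AEG-1ΔMAC (-0.71) than in AEG-1fl/fl (-0.23). Apoc4, which lies with Apoc2, Apoc1 and Apoe in the mouse genome, had 977.6 and 956.1 CPM and zone ratios of 0.25 and 0.11.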
